A study of Mus musculus with 12 samples.

Results

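The genes that encode the subunits, assembly chaperones and activators of the proteasome were followed in primary hepatocytes of *Mettl3* cKO and Control mice. The members were all genes of the count table whose name starts with Psma, Psmb, Psmc, Psmd, Psme, Psmf or Psmg followed by a number, without the inducible beta subunits *Psmb8*, *Psmb9* and *Psmb10*. This gave 46 of 48440 genes. Of these, 45 had at least 10 reads in both libraries of at least 1 group and the same 45 passed the filter on low counts, among 14488 genes tested. The remaining member, *Psmb11*, the beta subunit of the thymus, had no more than 2 reads in any library and is not described further.

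Hepatocytes came from *Mettl3* cKO mice, which carry *Mettl3* flox/flox alleles and *Alb*-*Cre*, and from Control mice, which the sample labels call WT. The *Alb* promoter drives Cre in hepatocytes, and whether other liver cells in a culture keep their *Mettl3* was not tested. All mice were on the C57BL/6J background, and the alleles carried by the Control mice, and the age and sex of the mice for this experiment, were not given in the sources used here. Cells were cultured for 16 h and then given 5 µM actinomycin D, a drug that blocks transcription, for 0, 2 or 6 h, with 2 libraries for each genotype and time. Whether the 2 libraries of a group came from separate mice or cultures is not stated, so p-values measure the spread between libraries, which may be technical. Because transcription is blocked, a level at 2 or 6 h describes RNA that remained, relative to all other RNA in the library.

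The proteasome is the protease that degrades most ubiquitin-tagged proteins in the cytosol and nucleus. Its core, the 20S particle, is a stack of alpha and beta rings with the catalytic sites inside, and the 19S particle, built of ATPases and non-ATPase subunits, binds tagged proteins, removes the ubiquitin and threads them into the core. Subunits are made in fixed proportions, and their genes are known to be transcribed together, with NFE2L1 as the activator that raises them when proteasome activity falls. In the liver the proteasome turns over short-lived enzymes and regulators and clears damaged proteins.

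Totals ran between 16952084 and 20914516 reads per library. The libraries of both genotypes labelled 6 h stood apart from the rest. The Control 6 h libraries held 20246 and 16565 reads of *Xist*, the RNA that silences an X chromosome in female cells, against at most 6 in each of the other 10 libraries, and at most 1 read of the Y-linked *Ddx3y*, against at least 2440 elsewhere. The *Mettl3* cKO 6 h libraries held 4 and 2 reads of *Eno1b*, a retrotransposed enolase gene, against 844 to 1605 reads in each of the other 10. *Mettl3* itself, counted over the whole gene although exons 2 to 4 are deleted, averaged 22.9 CPM (reads of a gene scaled by the total of the library) in cKO and 30.9 CPM in Control libraries at 0 h (log2 difference −0.47, adjusted p = 3.3e-04, edgeR). At 2 h it did not separate the labels, with 24.9 CPM in cKO and 24.8 CPM in Control libraries (−0.11, adjusted p = 0.358). At 6 h it went against its label, with 21.8 CPM in libraries labelled *Mettl3* cKO and 14.4 CPM in those labelled Control. The names *Mettl3* cKO and Control therefore stand for the labels, and every difference at 6 h rests on libraries that stood apart in both genotypes. The hepatocyte marker *Alb* was high in all libraries, at 4.04% to 9.52% of reads.

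Promoters were examined because most members moved together. RefSeq promoters of GRCm38.p6, each from 250 bases before to 50 bases after the start, were found for 38 of the 46 genes, as 41 windows. The core of the antioxidant response element, TGACNNNGC on either strand, which NFE2L1 and NFE2L2 are known to bind, was present in 6 of the 38 genes (15.8%) and in 14% of all 27025 genes with a promoter. The CCAAT box, CCAAT on either strand, was present in 13 (34.2%) against 41.1% of all genes. The core of the NRF1 motif, GCATGCGC on either strand, was present in 3 (7.89%) against 3.05%. NRF1 here stands for a nuclear respiratory factor and not for NFE2L1. The 6 genes with TGACNNNGC were *Psmb5*, *Psmb6*, *Psmc6*, *Psmd9*, *Psmd12* and *Psme4*. The 4 with the highest mean CPM are shown 5′ to 3′ on the strand of the gene, with the match in capitals. They are on chromosome 11 from 30771525 to 30771824 (*Psme4*), chromosome 14 from 45329574 to 45329873 (*Psmc6*), chromosome 11 from 70525107 to 70525406 (*Psmb6*) and chromosome 11 from 107479278 to 107479577 (*Psmd12*), all on the plus strand.
Psme4: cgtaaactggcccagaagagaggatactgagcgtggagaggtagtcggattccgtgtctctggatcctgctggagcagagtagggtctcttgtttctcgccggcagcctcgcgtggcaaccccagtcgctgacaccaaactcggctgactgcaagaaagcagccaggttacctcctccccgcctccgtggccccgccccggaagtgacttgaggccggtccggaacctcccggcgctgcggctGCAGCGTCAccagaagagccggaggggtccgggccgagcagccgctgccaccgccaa
Psmc6: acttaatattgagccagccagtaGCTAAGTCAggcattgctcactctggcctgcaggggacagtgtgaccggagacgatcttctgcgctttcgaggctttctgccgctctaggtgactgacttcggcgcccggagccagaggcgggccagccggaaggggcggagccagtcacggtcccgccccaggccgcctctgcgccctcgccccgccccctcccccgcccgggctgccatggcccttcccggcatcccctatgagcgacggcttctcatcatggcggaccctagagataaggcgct
Psmb6: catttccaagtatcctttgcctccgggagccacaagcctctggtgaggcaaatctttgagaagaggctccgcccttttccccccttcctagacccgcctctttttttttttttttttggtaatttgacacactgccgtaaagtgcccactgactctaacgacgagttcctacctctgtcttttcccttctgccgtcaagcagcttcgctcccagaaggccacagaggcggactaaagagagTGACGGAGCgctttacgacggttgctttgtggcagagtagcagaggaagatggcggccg
Psmd12: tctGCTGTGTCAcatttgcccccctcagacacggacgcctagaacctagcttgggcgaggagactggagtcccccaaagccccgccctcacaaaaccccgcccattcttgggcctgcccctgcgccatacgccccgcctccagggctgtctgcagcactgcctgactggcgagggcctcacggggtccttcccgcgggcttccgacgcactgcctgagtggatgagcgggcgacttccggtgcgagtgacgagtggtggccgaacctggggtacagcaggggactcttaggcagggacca
A match describes letters in the window and not a bound site.

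Members differed widely in level. Per kb of the principal transcript, *Psmd8*, a lid subunit of the 19S particle, was the highest in both genotypes at 0 h, with a mean of 319 CPM per kb in *Mettl3* cKO and 362 CPM per kb in Control libraries. The lowest of the subunits that every proteasome carries was *Psma2*, an alpha ring subunit, with 21.9 CPM per kb in cKO and 34.2 CPM per kb in Control. The 7 beta ring genes other than *Psmb11* spanned 59.1 to 157 CPM per kb in cKO and 73.7 to 233 CPM per kb in Control, and the 6 ATPase genes spanned 61.9 to 127 CPM per kb in cKO and 85.9 to 185 CPM per kb in Control. Assembly chaperones were lower, with *Psmg1* to *Psmg4* between 8.73 and 24.5 CPM per kb in cKO and between 8.08 and 27.2 CPM per kb in Control. *Psma8*, the alpha subunit of the testis, and *Psme2b*, a close relative of *Psme2*, stayed at 0.765 and 3.93 CPM per kb in cKO and at 0.617 and 3.65 CPM per kb in Control. Multi-mapped reads were discarded, so reads that fit both *Psme2* and *Psme2b* count for neither.

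The share of all reads that came from proteasome genes was lower in *Mettl3* cKO libraries at every time. Summed over the 46 genes, the level at 0 h was 5400 ± 128 CPM in cKO and 6790 ± 51.8 CPM in Control (SD, n = 2 each). At 2 h it was 5916 ± 85.0 CPM in cKO and 7565 ± 10.4 CPM in Control, and at 6 h it was 6112 ± 83.1 CPM in cKO and 7671 ± 225 CPM in Control. The cKO sum was thus 20.5%, 21.8% and 20.3% lower at 0, 2 and 6 h, and at no time did the libraries of the genotypes overlap. With 2 libraries against 2, the smallest p that an exact permutation test can give is 0.33. A lack of overlap is therefore weak evidence by itself, here and below. In such bulk samples, fewer cells of a type and less RNA per cell cannot be told apart.

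The size of this gap differed by role, as described by sums over the members with no test. At 0 h the alpha ring sum was 713 ± 17.5 CPM in cKO and 981 ± 15.9 CPM in Control, 27.3% lower in cKO. The beta ring sum was 25.7% lower and the ATPase sum 26.0% lower. Non-ATPase subunits of the 19S particle showed a smaller gap, with 2300 ± 26.9 CPM in cKO and 2789 ± 42.0 CPM in Control, 17.5% lower. That sum includes *Psmd7*, which had a mean of 255 CPM in cKO and 190 CPM in Control. The activators that cap the core were 13.0% lower. The sum of the 19S assembly chaperones *Psmd5*, *Psmd9* and *Psmd10*, which help the base of the 19S particle form, ran the other way, with 206 ± 6.91 CPM in cKO and 193 ± 2.21 CPM in Control. That ratio was 1.07 at 0 h, 1.15 at 2 h and 1.36 at 6 h. *Psmd5* made up most of this sum, with a mean of 148 CPM in cKO and 135 CPM in Control at 0 h. The members were split. At 0 h *Psmd10* had 34.8 CPM in cKO and 30.1 CPM in Control, and *Psmd9* had 23.7 and 27.9 CPM. None of the members was called higher at 0 h. The plot of summed CPM shows this chaperone group with cKO above Control and the 7 other role sums with cKO below Control.

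**Figure D1:**
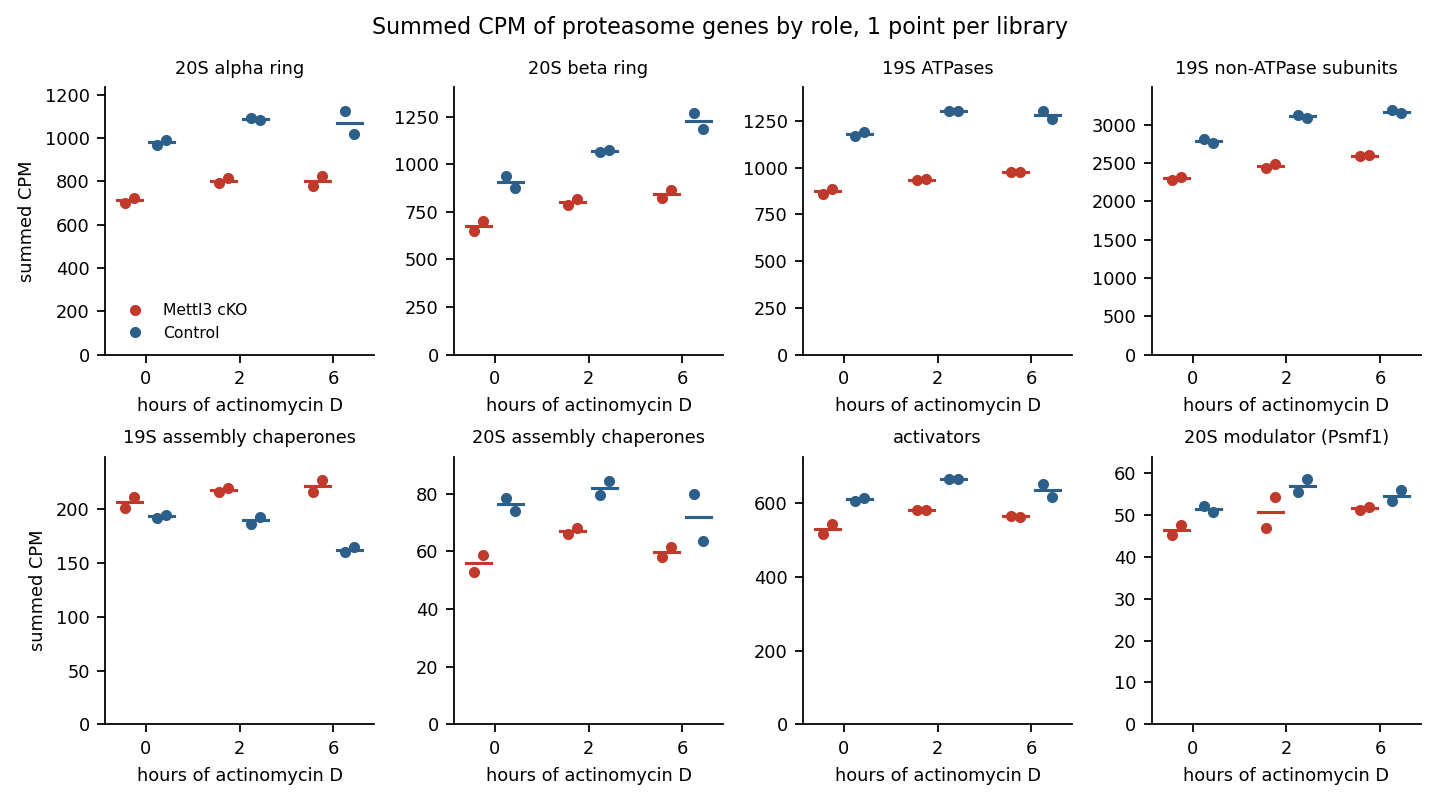
Summed CPM of the proteasome genes of each role (vertical axes) at 0, 2 and 6 h of actinomycin D, with 1 point per library and a bar at the mean of the 2 libraries of *Mettl3* cKO (left of each pair) and Control (right). The cKO points lie below the Control points in every panel except that of the 19S assembly chaperones, where they lie above them at all 3 times.

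The first question was how the steady level of each gene differed without *Mettl3*, before the drug acted. At 0 h, 35 of the 45 genes were lower in *Mettl3* cKO hepatocytes, against 25.5% of all genes tested, and 1 was higher, against 29.6% of all genes tested (quasi-likelihood test of edgeR, with Benjamini-Hochberg adjustment over all 14488 genes and a threshold of 0.05). The median log2 difference was −0.41 over the 45 genes and 0.03 over all genes. Lower genes included 7 of the 8 alpha ring genes, 6 of the 7 beta ring genes, all 6 ATPases and 10 of the 11 non-ATPase subunits. Their log2 differences spanned −0.68 to −0.15 for alpha ring genes, −0.61 to −0.26 for beta ring genes, −0.58 to −0.31 for ATPases and −0.62 to −0.22 for non-ATPase subunits. Of the 19S assembly chaperones only *Psmd9* was lower (log2 difference −0.27, SE 0.09, adjusted p = 0.0109). Its call was lost without Control 0 h replicate 1 (−0.22, adjusted p = 0.104) or *Mettl3* cKO 0 h replicate 2 (−0.20, adjusted p = 0.118), and 25.5% of its exon bases overlap another gene in an assay that does not mark strand.

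*Psmd7* was the exception. It encodes the lid subunit that pairs with the deubiquitinase encoded by *Psmd14*, and its gene spans bases 107580381 to 107588464 of chromosome 8 in mm10. It had 259 and 250 CPM in cKO libraries, against 187 and 193 CPM in Control libraries at 0 h. Both cKO libraries were above both Control libraries. The log2 difference was 0.38 (SE 0.05, adjusted p = 2.17e-06, edgeR), while its partner *Psmd14* was lower (log2 difference −0.52, SE 0.06, adjusted p = 1.83e-07).

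The lowest ratios at 0 h belonged to assembly factors and alpha subunits. *Psmg1* and *Psmg2* encode the pair of chaperones on which the alpha ring is put together. *Psmg1* had 15.7 and 18.2 CPM in cKO libraries and 27.6 and 25.4 CPM in Control libraries, and *Psmg2* had 17.4 and 17.96 CPM in cKO libraries and 27.8 and 27.3 CPM in Control libraries. The genotypes did not overlap for either gene. Their log2 differences were −0.69 (SE 0.11, adjusted p = 5.78e-06) and −0.68 (SE 0.11, adjusted p = 1.08e-05), both from edgeR's test. The alpha ring genes *Psma2* and *Psma7* followed with −0.68 and −0.67 (adjusted p = 8.77e-09 and 4.5e-10). The other chaperone pair of the core, *Psmg3* and *Psmg4*, gave 0.07 (adjusted p = 0.77) and −0.19 (adjusted p = 0.179).

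Among catalytic beta subunits the caspase-like *Psmb6* and the trypsin-like *Psmb7* were lower at 0 h (−0.55 and −0.55, adjusted p = 1.81e-06 and 3.18e-07), and the chymotrypsin-like *Psmb5* was not called. *Psmb5* had 56.5 and 68.1 CPM in cKO and 71.9 and 60.5 CPM in Control libraries. These values overlapped (log2 difference −0.13, 95% confidence interval −0.30 to 0.04, adjusted p = 0.191), and 12.1% of its exon bases overlap a microRNA gene. *Psme1* and *Psme2*, the interferon-inducible subunits of the PA28 activator, gave −0.02 and −0.09 (adjusted p = 0.782 and 0.402), whereas the nuclear activator gene *Psme3* and *Psme4*, which encodes PA200, were lower (−0.22 and −0.43). *Psmf1*, whose product binds and modulates the core, was lower (−0.19, adjusted p = 0.0406), a call lost without any 1 of the 4 libraries of 0 h (adjusted p between 0.0606 and 0.172). The smallest called difference, that of the alpha subunit gene *Psma4* (−0.15, adjusted p = 0.0395), was lost without Control 0 h replicate 2 (−0.09, adjusted p = 0.342) or *Mettl3* cKO 0 h replicate 2 (−0.07, adjusted p = 0.423). With total counts as library sizes *Psmf1* and *Psma4* were not called at 0 h (adjusted p = 0.103 and 0.123, edgeR), which left 33 lower genes, against 22.5% of all genes.

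**Figure D2:**
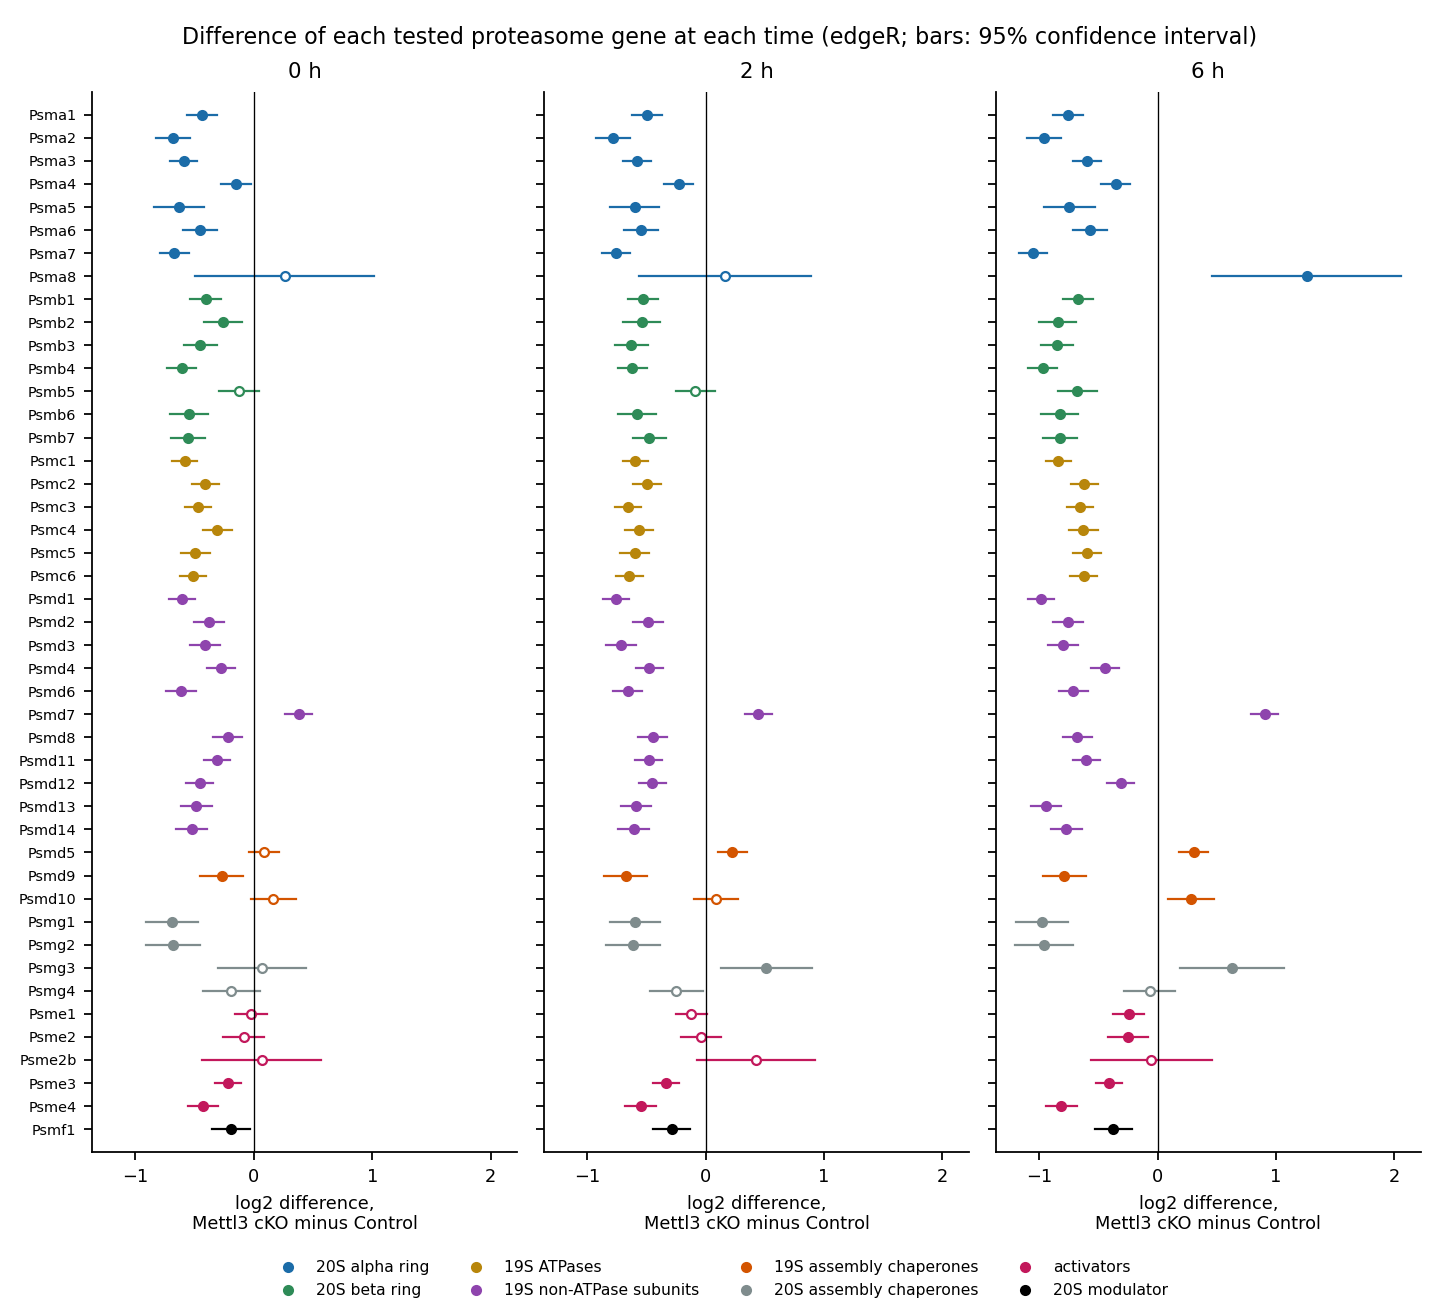
Log2 difference between *Mettl3* cKO and Control (horizontal axes, positive where cKO is higher) of each of the 45 tested genes at 0, 2 and 6 h, coloured by role, with 95% confidence intervals from edgeR. Filled points passed an adjusted p under 0.05 and open points did not; most points lie left of 0, with medians of −0.41, −0.54 and −0.67 under TMM, and *Psmd7* lies right of 0 in every panel.

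The same pattern held after 2 h of actinomycin D. At 2 h, 35 of the 45 genes were lower in libraries labelled *Mettl3* cKO, against 28.6% of all genes tested, and 3 were higher, against 32.3% (edgeR). The 35 genes lower at 2 h were the 35 lower at 0 h. The median log2 difference was −0.54 over the 45 genes and 0.03 over all genes. *Psma2* and *Psmd1*, which encodes a scaffold subunit of the 19S base, had the lowest ratios.

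*Psma2* had 65.0 and 69.9 CPM in cKO libraries and 106 and 109 CPM in Control libraries (log2 difference −0.78, SE 0.07, adjusted p = 3.79e-10, edgeR). *Psmd1* had 195 and 187 CPM in cKO libraries and 302 and 294 CPM in Control libraries (−0.76, SE 0.05, adjusted p = 4.15e-12). Neither gene overlapped between genotypes, although 7.61% of the exon bases of *Psmd1* overlap other genes. *Psma7* and the lid subunit gene *Psmd3* followed with −0.76 and −0.72.

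The 3 genes called higher in cKO libraries at 2 h were *Psmg3*, *Psmd7* and *Psmd5*. *Psmd7* had 281 and 291 CPM in cKO libraries and 193 and 195 CPM in Control libraries, without overlap (log2 difference 0.45, SE 0.05, adjusted p = 1.14e-07, edgeR). *Psmg3* was thinly covered, with 162 and 141 reads in cKO libraries and 105 and 89 reads in Control libraries (8.82 and 7.55 CPM in cKO, 5.59 and 4.99 CPM in Control). Its log2 difference of 0.51 (SE 0.19, adjusted p = 0.0206) missed the threshold without Control 2 h replicate 2 (0.43, adjusted p = 0.125) or without *Mettl3* cKO 2 h replicate 1 (0.39, adjusted p = 0.158), and 9.68% of its exon bases overlap another gene. *Psmd5*, a chaperone of the 19S base, differed by 0.23 (SE 0.06, adjusted p = 0.0024), and by 0.18 (adjusted p = 0.052) without Control 2 h replicate 1.

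The third comparison was between the libraries labelled 6 h, where the cKO libraries stood apart by *Eno1b* and the Control libraries by *Xist* and *Ddx3y*. Of the 45 genes, 38 were lower in libraries labelled *Mettl3* cKO, against 33.1% of all genes tested, and 5 were higher, against 35.4% (edgeR). The median log2 difference was −0.67 over the 45 genes and 0.03 over all genes. The 35 genes lower at 0 and 2 h were again lower, and *Psmb5*, *Psme1* and *Psme2* joined them (−0.68, −0.24 and −0.25). The call of *Psme2* was lost without Control 6 h replicate 1 (−0.17, adjusted p = 0.0961) or *Mettl3* cKO 6 h replicate 2 (−0.23, adjusted p = 0.0637). The called differences of the lower genes spanned −1.05 to −0.35 for the alpha ring, −0.97 to −0.67 for the beta ring, −0.84 to −0.59 for ATPases and −0.98 to −0.31 for non-ATPase subunits. In all, 35 of the 45 genes were lower at all 3 times, against 18.8% of all genes tested, and *Psmd7* was the 1 gene higher at all 3, against 20.8%. Only *Psmg4* and *Psme2b* were called at no time in these fits.

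*Psma7* had 131 and 141 CPM in libraries labelled *Mettl3* cKO and 230.5 and 230.7 CPM in those labelled Control at 6 h (log2 difference −1.05, SE 0.06, adjusted p = 1.46e-14, edgeR). *Psmd1* had 191 and 190 CPM in cKO and 313 and 303 CPM in Control (−0.98, SE 0.05, adjusted p = 1.32e-14). For both genes the libraries of the genotypes did not overlap. *Psmg1* and *Psmb4*, a beta ring subunit without a catalytic site, followed with −0.98 and −0.97 (adjusted p = 8.19e-09 and 1.48e-13).

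*Psmd7* had 343 and 345 CPM in libraries labelled *Mettl3* cKO and 148 and 152 CPM in those labelled Control at 6 h, with no overlap (log2 difference 0.91, SE 0.05, adjusted p = 1.34e-13, edgeR). *Psma8* had a larger ratio on few reads, 33 and 30 in cKO and 11 and 12 in Control. Its log2 difference of 1.26 (SE 0.39, adjusted p = 0.00601) gave 1.11 (adjusted p = 0.0536) without Control 6 h replicate 1. *Psmg3* followed with 0.63 (adjusted p = 0.0106), a call lost without Control 6 h replicate 2 (0.52, adjusted p = 0.0704) or *Mettl3* cKO 6 h replicate 1 (0.55, adjusted p = 0.0709). *Psmd5* was higher by 0.30 (SE 0.06, adjusted p = 8.65e-05), and by 0.20 (adjusted p = 0.0105) without Control 6 h replicate 1. The X-linked *Psmd10*, which encodes gankyrin, another chaperone of the 19S base, was higher by 0.28 (SE 0.09, adjusted p = 0.0106), and by 0.22 to 0.26 (adjusted p between 0.0549 and 0.105) without either Control 6 h library or *Mettl3* cKO 6 h replicate 2. Without either of the Control 6 h libraries 3 genes were called higher in place of 5.

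The scaling of the libraries mattered most at 6 h. TMM, which sets library sizes so that most genes do not differ, was used for these comparisons, and total counts in its place shifted the median log2 difference of all genes by 0.04 at 0 h, 0.12 at 2 h and 0.29 at 6 h. The median of the 45 genes was −0.37, −0.42 and −0.38 with total counts, so that it was not further from 0 at 6 h than at 2 h. With total counts, 33 of the 45 genes were lower at each of the 3 times, and 1, 3 and 5 were higher. Of all genes, 22.5%, 21.3% and 19.8% were then lower and 31.9%, 37.8% and 46.4% higher at 0, 2 and 6 h. Over all genes tested, 63.9% of the calls at 2 h and 70.1% of those at 6 h were then in the higher direction, against 53.1% and 51.7% with TMM. At 6 h *Psma4*, *Psmd12*, *Psme1*, *Psme2* and *Psmf1* lost their calls with total counts, and *Psme1* and *Psme2* turned in sign (0.05 and 0.04). Measured from the median of all genes, the median of the 45 genes was −0.44, −0.57 and −0.70 at 0, 2 and 6 h with either scaling. Scaling moves all genes nearly alike, so this agreement was set in advance.

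**Figure D3:**
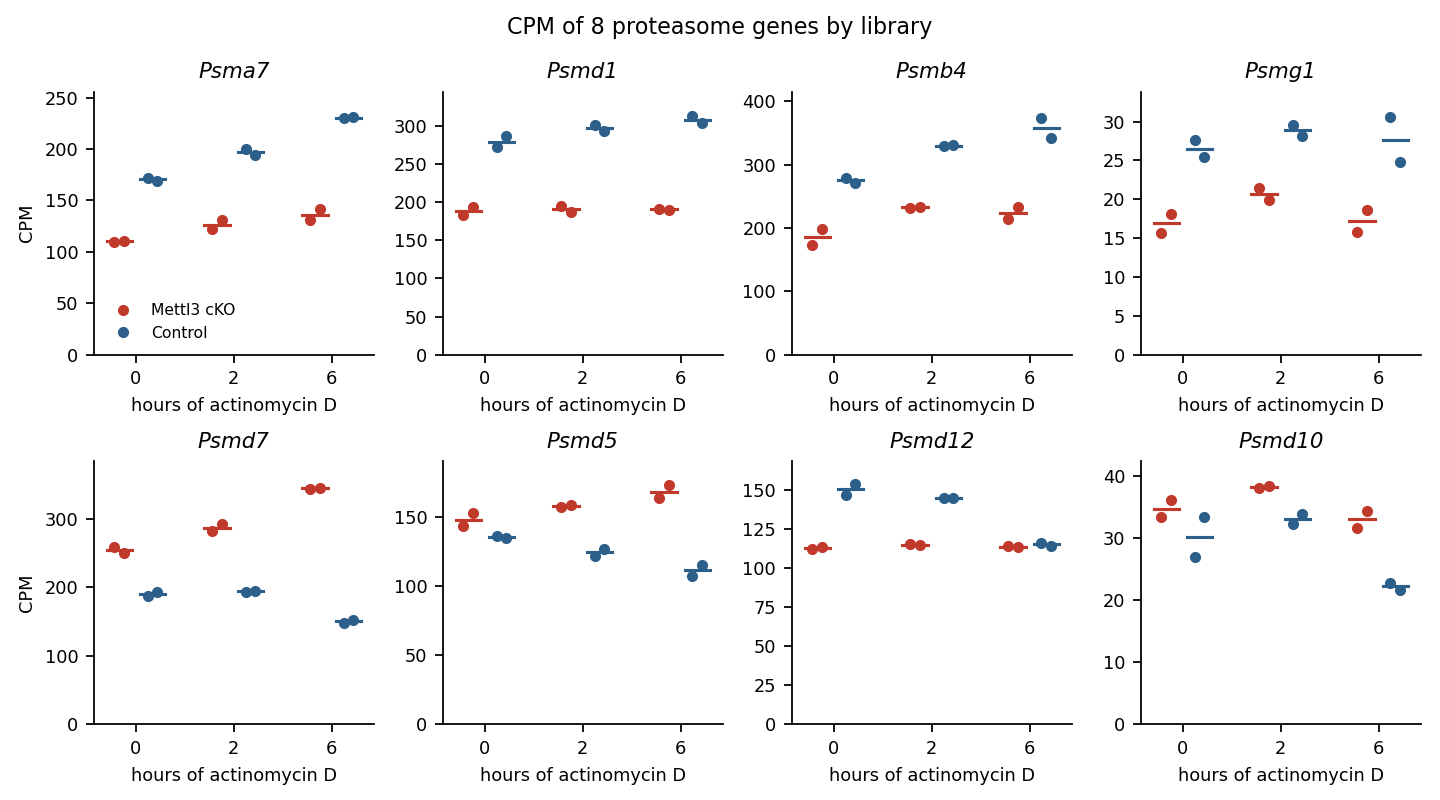
CPM (vertical axes) of 8 proteasome genes at 0, 2 and 6 h of actinomycin D, with 1 point per library and a bar at the mean of the 2 libraries of *Mettl3* cKO (left of each pair) and Control (right). The upper row shows 4 genes lower in cKO at every time, and in the lower row *Psmd7* reaches 343 and 345 CPM in cKO at 6 h, against 148 and 152 CPM in Control, while the Control level of *Psmd12* comes down to that of cKO.

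Other cell types of the liver could be present in such cultures, so markers were examined beside these calls. The counts of called markers stand beside the shares of all genes tested under TMM. Those were 29.6%, 32.3% and 35.4% higher and 25.5%, 28.6% and 33.1% lower in cKO at 0, 2 and 6 h (edgeR). The summed level of 8 macrophage genes was 389 to 424 CPM in cKO and 177 to 178 CPM in Control libraries at 0 h, 443 to 456 CPM in cKO and 210 to 232 CPM in Control at 2 h, and 274 to 295 CPM in cKO and 90.9 to 110 CPM in Control at 6 h, and 7, 7 and 8 of the 8 genes were higher. The sum of 8 stellate cell genes was 312 to 325 CPM in cKO and 199 to 203 CPM in Control at 0 h, with 4 of 8 higher, 350 to 386 CPM in cKO and 261 to 271 CPM in Control at 2 h, with 3 of 8 higher, and 355 to 377 CPM in cKO and 156 to 161 CPM in Control at 6 h, with 6 of 8 higher. The sum of 8 endothelial genes was 264 to 293 CPM in cKO and 227 to 240 CPM in Control at 0 h, with 3 of 8 higher, 135 to 170 CPM in cKO and 147 to 151 CPM in Control at 2 h, where they overlapped with 2 of 8 higher and 1 lower, and 44.3 to 50.6 CPM in cKO and 17.3 to 17.7 CPM in Control at 6 h, with 5 of 8 higher. The sum of 5 bile duct genes was 65.3 to 72.4 CPM in cKO and 184 to 195 CPM in Control at 0 h, with 3 of 5 lower, 52.9 to 54.3 CPM in cKO and 209.7 to 217 CPM in Control at 2 h, with 4 of 5 lower, and 51.2 to 53.8 CPM in cKO and 307 to 330 CPM in Control at 6 h, with 3 of 5 lower and 1 higher. Of 5 lymphocyte genes, *Cd3e* had 0 reads in every library, and their sum was no higher than 16.2 CPM. The sum of 8 hepatocyte genes was 45610 to 48649 CPM in cKO and 49701 to 50951 CPM in Control at 0 h, with 6 of 8 lower and 1 higher, 60113 to 60116 CPM in cKO and 66798 to 68427 CPM in Control at 2 h, with 6 lower and 1 higher, and 60810 to 60884 CPM in cKO and 93124 to 100845 CPM in Control at 6 h, with 7 lower and 1 higher. *Alb* alone had 40418 to 42878 CPM in cKO and 46439 to 47844 CPM in Control libraries at 0 h. The median log2 difference of the 8 hepatocyte genes was −0.84 at 0 h, −0.81 at 2 h and −1.33 at 6 h. The part of these cell types in the differences of proteasome genes was not tested.

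The second question was how proteasome RNAs behaved once transcription was blocked, within each genotype. Here total counts were the library sizes, so a change is a change in the share of reads, and the share of an RNA can rise when others are lost. In *Mettl3* cKO libraries, 17 of the 45 genes were higher at 2 h than at 0 h, against 12% of all genes tested, and 1 was lower, against 29.2% (edgeR). The median log2 change was 0.16 for the 45 genes and −0.08 for all genes. In Control libraries, 22 of the 45 were higher at 2 h, against 12.9% of all genes tested, and 0 were lower, against 36.3% (2 at an unadjusted p under 0.05, and 0 with DESeq2's Wald test). The median was 0.16 for the 45 genes and −0.15 for all genes.

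The activator genes *Psme1* and *Psme2* were among the genes with the largest rise in both genotypes. *Psme2* had 99.9 and 116 CPM at 2 h, against 71.0 and 85.8 CPM at 0 h, in cKO libraries (log2 change 0.47, SE 0.09, adjusted p = 2.09e-04, edgeR). The times did not overlap. The chaperone gene *Psmg4* had 17.5 and 19.2 CPM at 2 h, against 14.0 and 13.2 CPM at 0 h, in cKO libraries (0.43, SE 0.12, adjusted p = 0.00455), a call lost without *Mettl3* cKO 2 h replicate 2 (0.37, adjusted p = 0.0623). *Psme1* and *Psmb5* followed with 0.35 each (adjusted p = 1.4e-04 and 0.00279), and *Psmb5* gave 0.22 (adjusted p = 0.0903) without *Mettl3* cKO 0 h replicate 1. *Psmd11*, a lid subunit gene, fell by 0.14 on the log2 scale (SE 0.05, adjusted p = 0.0326), with 161 and 165 CPM at 2 h and 186 and 174 CPM at 0 h. That call was lost under TMM (adjusted p = 0.497), without the filter on low counts (0.0685), and without either 2 h library or *Mettl3* cKO 0 h replicate 1 (0.0852 to 0.289).

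In Control libraries *Psmg4* had 18.5 and 21.7 CPM at 2 h and 15.5 and 14.6 CPM at 0 h (log2 change 0.41, SE 0.12, adjusted p = 0.00497, edgeR). Without Control 2 h replicate 2 its change was 0.30 (adjusted p = 0.102). *Psme1* had 91.0 and 92.5 CPM at 2 h and 75.4 and 67.0 CPM at 0 h (0.37, SE 0.07, adjusted p = 5.52e-05). For both genes the 2 h libraries were above the 0 h libraries. *Psme2* and the ATPase gene *Psmc4* followed with 0.34 and 0.29 (adjusted p = 0.00319 and 8.68e-05). By role, 6 of 7 beta ring genes were higher at 2 h in each genotype, and 3 of 8 alpha ring genes in cKO and 2 of 8 in Control. Higher were also 2 of 6 ATPases in cKO and 4 of 6 in Control. Of the 11 non-ATPase subunits, 2 were higher in cKO and 6 in Control. Among all genes tested, 12% were higher in cKO and 12.9% in Control.

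These counts depended on the scaling and on single libraries. With TMM, 33 of the 45 genes were higher at 2 h in cKO, against 21.3% of all genes, and 0 were lower, against 23.6%. In Control 37 were higher, against 26.4%, and 0 lower, against 28.2%. TMM moved the median change of all genes by 0.09 in cKO and 0.17 in Control. Over all genes, 47.4% of the calls in cKO and 48.3% of those in Control were then in the higher direction, against 29.2% and 26.2% with total counts. The median of the 45 genes minus that of all genes was 0.24 in cKO and 0.31 in Control with either scaling. Scaling moves all genes nearly alike, so this agreement was set in advance. With each library of the comparison left out, the value was 0.22 to 0.28 in cKO and 0.31 to 0.34 in Control. Without *Mettl3* cKO 2 h replicate 2 the number of higher genes in cKO was 5, and without *Mettl3* cKO 0 h replicate 1 it was 10. Without either of the Control 2 h libraries the number in Control was 13.

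**Figure D4:**
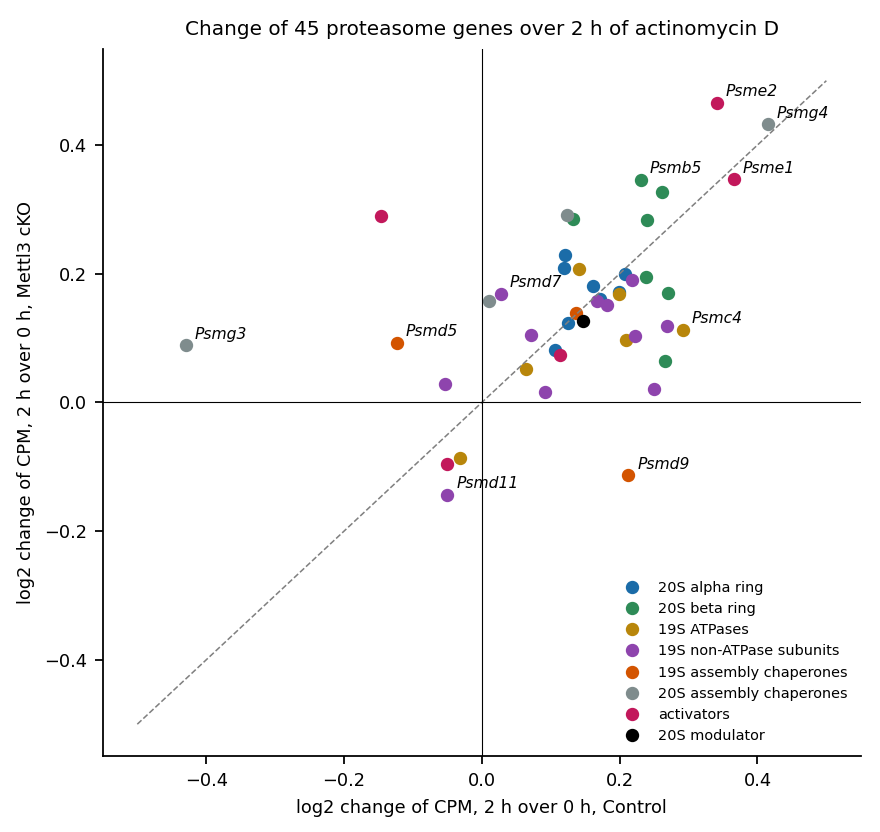
Log2 change of CPM over 2 h of actinomycin D in *Mettl3* cKO (vertical axis) and in Control (horizontal axis) for the 45 tested genes, coloured by role, with a dashed line of equal change. Most points lie in the quadrant where both changes are positive, with *Psme2*, *Psmg4* and *Psme1* at its top right, and *Psmg3* (0.09 in cKO, −0.43 in Control) and *Psmd9* (−0.11 in cKO, 0.21 in Control) lie far from the line.

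The difference between genotypes in this change was tested directly. None of the 45 genes had a change over 2 h that differed between *Mettl3* cKO and Control in edgeR's test, with 0 higher, against 12.5% of all genes tested, and 0 lower, against 1.29%. At an unadjusted p under 0.05 there were 1 higher and 3 lower, and DESeq2's Wald test also called 0. The median difference was −0.01 for the 45 genes and 0.06 for all genes, and the 95% confidence interval of a single gene reached 0.19 to either side in the median. With TMM 3 genes, *Psmc4*, *Psmd3* and *Psmd9*, were called lower (−0.26, −0.30 and −0.40, adjusted p = 0.0399, 0.0179 and 0.0292, edgeR), against 3.24% of all genes. None was called higher, against 10.4%.

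Over all 3 times, the slope of log2 CPM per hour was higher in cKO than in Control for 3 of the 45 genes, against 24.3% of all genes tested, and lower for 0, against 2.57% (edgeR). For lower slopes, 1 gene had an unadjusted p under 0.05, and DESeq2's Wald test called 0. The median difference in slope was 0.0005 for the 45 genes and 0.04 for all genes. Median slopes themselves were close to 0 for proteasome genes, at 0.02 log2 per hour in cKO and 0.02 in Control, whereas those of all genes were −0.05 in cKO and −0.10 in Control.

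The 3 genes were *Psmd7*, *Psmd5* and *Psmd12*. *Psmd7* rose by 0.07 log2 per hour in cKO (SE 0.01, adjusted p = 1.83e-04, edgeR) and its slope in Control was −0.06 (SE 0.01, adjusted p = 3.26e-04), a difference of 0.13 (SE 0.02, adjusted p = 4.03e-05). *Psmd5* had 144 and 152 CPM at 0 h, 157 and 158 CPM at 2 h and 163 and 173 CPM at 6 h in cKO libraries, against 136 and 135, 122 and 127, and 107 and 115 CPM at the same times in Control libraries. Its difference in slope was 0.08 (SE 0.01, adjusted p = 0.00119). The levels of the genotypes did not overlap at any time.

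*Psmd12*, a lid subunit gene whose promoter is among those printed, converged instead. It had 112 and 114 CPM at 0 h, 115 and 115 CPM at 2 h and 114 and 114 CPM at 6 h in cKO libraries, against 147 and 154, 145 and 145, and 116 and 114 CPM in Control libraries. The slope was 0.001 log2 per hour in cKO (adjusted p = 0.914) and −0.07 in Control (adjusted p = 3.46e-05), and the difference was 0.07 (SE 0.01, adjusted p = 0.00175, edgeR). The cKO libraries were below the Control libraries at 0 and 2 h, and at 6 h all 4 libraries lay between 114 and 116 CPM. With TMM in place of total counts *Psmd5* and *Psmd12* were not called (adjusted p = 0.117 and 0.172), *Psmd7* was the 1 gene called higher and 11 genes were called lower, among them *Psma7*, *Psmb2*, *Psmb5*, *Psmd1* and *Psmd8*. Over all genes 59.9% of the calls were then in the higher direction, against 90.4% with total counts.

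These slopes include the 6 h libraries of both genotypes, which stood apart. The difference in the change over 2 h compares no level at 6 h, although its fit took the spread from all libraries. It was 0.14 for *Psmd7* (adjusted p = 0.237), 0.22 for *Psmd5* (adjusted p = 0.089) and 0.08 for *Psmd12* (adjusted p = 0.593, edgeR). These values are in log2 units and positive like the slopes. A fit on the 0 and 2 h libraries alone called 0 proteasome genes higher in this difference, against 13.7% of all genes, and 1 lower, against 1.65%. Fits that leave out all 6 h libraries, added after the data were seen, also compared cKO and Control at 0 and 2 h. At 0 h, 33 proteasome genes were lower, against 25.1% of all genes, and 1 was higher, against 31.8%. At 2 h, 36 were lower, against 30.6%, and 3 were higher, against 32.4%.

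Genes that work with the proteasome but carry other names were taken from a list of 26 tested genes. Of these, 14 were lower and 4 higher in *Mettl3* cKO at 0 h, against 25.5% lower and 29.6% higher among all genes tested (edgeR). At 2 h, 16 were lower and 5 higher, against 28.6% and 32.3%, and at 6 h, 17 were lower and 5 higher, against 33.1% and 35.4%. The medians were −0.22, −0.27 and −0.27 under TMM. With total counts, an alternative chosen after the data were seen, 12, 13 and 10 of the 26 were lower at 0, 2 and 6 h, against 22.5%, 21.3% and 19.8% of all genes. Higher were 4, 5 and 10, against 31.9%, 37.8% and 46.4%. Over 2 h of the drug, 4 rose and 11 fell in cKO, against 12% and 29.2% of all genes, and 4 rose and 9 fell in Control, against 12.9% and 36.3%. With TMM, 6 rose and 7 fell in cKO, against 21.3% and 23.6%, and 11 rose and 8 fell in Control, against 26.4% and 28.2%. *Paaf1*, an assembly factor, was not analysed here. Under TMM the genes lower at all times included *Adrm1*, a ubiquitin receptor of the 19S particle (−0.53 at 0 h), the deubiquitinase genes *Usp14* (−0.56) and *Uchl5* (−0.39, with a call lost at 2 h and a turn in sign at 6 h under total counts), the ubiquitin ligase gene *Ube3c* (−0.48) and the core assembly gene *Pomp* (−0.64). Lower at all times were also the shuttle genes *Rad23b* (−0.28) and *Ubqln1* (−0.34), the 19S-bound thioredoxin gene *Txnl1* (−0.43), the segregase gene *Vcp* (−0.26), the ubiquitin-activating enzyme gene *Uba1* (−0.50) and *Ngly1* (−0.40, with the call at 6 h lost under total counts), whose product removes sugars from NFE2L1.

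*Shfm1*, which encodes the small 19S subunit SEM1, and the ubiquitin fusion gene *Rps27a* were lower at 0 h (−0.39 and −0.25) and 6 h (−0.43 and −0.31). *Zfand5*, which encodes a proteasome-binding protein, was lower at 0 h (−0.19). *Ubb*, a polyubiquitin gene, *Akirin2*, whose product carries proteasomes into the nucleus, and the shuttle gene *Ubqln4* were lower at 2 h (−0.45, −0.31 and −0.25) and 6 h (−0.97, −0.24 and −0.15), *Fbxo7*, whose product binds PSMF1, and *Nploc4* at 2 h (−0.25 and −0.30), and *Ufd1l*, which like *Nploc4* encodes a cofactor of VCP, at 6 h (−0.19). With total counts *Ubqln4* was higher at 6 h (0.14, adjusted p = 0.0404), and *Akirin2*, *Ufd1l* and *Uchl5* turned in sign without a call (0.05, 0.10 and 0.08). The calls of *Rps27a* and *Zfand5* at 0 h, of *Fbxo7* and *Ubqln4* at 2 h, and of *Shfm1* and *Rps27a* at 6 h were then lost. The inducible beta subunit genes gave 0.01 for *Psmb8*, −0.39 for *Psmb9* and −0.08 for *Psmb10* at 0 h (adjusted p = 0.946, 0.0651 and 0.525). *Psmb10* was lower at 2 h (−0.27) and 6 h (−0.47), and *Psmb9* at 6 h (−0.82), and neither call of *Psmb10* held with total counts (adjusted p = 0.187 and 0.129).

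A few of these genes were higher in cKO. *Nfe2l1*, the activator of proteasome genes, had 364 and 363 CPM at 0 h, 320 and 315 CPM at 2 h and 286 and 275 CPM at 6 h in cKO libraries, against 347 and 338, 201 and 203, and 105 and 104 CPM in Control libraries. Its log2 difference was 0.05 at 0 h (adjusted p = 0.465), 0.53 at 2 h (adjusted p = 1.59e-09) and 1.14 at 6 h (adjusted p = 5.95e-16, edgeR). The genotypes did not overlap at any time, and the difference in the change over 2 h was 0.57 (adjusted p = 1.86e-06). *Ddi2*, which encodes the protease that cuts NFE2L1 to its active form, was higher in cKO at all times (0.65, 0.80 and 1.30).

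*Nfe2l2*, which encodes NRF2, the activator of antioxidant genes, had 154 and 138 CPM in cKO libraries and 101 and 106 CPM in Control libraries at 0 h, and 42.1 and 39.2 CPM in cKO libraries and 6.48 and 6.67 CPM in Control libraries at 6 h. The log2 difference was 0.46 at 0 h, 1.50 at 2 h and 2.34 at 6 h (adjusted p = 1.18e-05, 1.1e-13 and 8.71e-16, edgeR). *Ubqln2*, a shuttle gene, was higher at all times (0.69, 0.72 and 0.92), as was *Zfand2a*, which encodes a 19S-bound protein of the arsenite response (0.16, 0.58 and 0.78). Of the 26 genes, 6 had a higher slope in cKO, against 24.3% of all genes (*Nfe2l1*, *Nfe2l2*, *Ddi2*, *Ubqln2*, *Nploc4* and *Uchl5*), and 4 a change over 2 h that was higher in cKO, against 12.5% (*Nfe2l1*, *Nfe2l2*, *Ddi2* and *Zfand2a*). With TMM the slopes of *Ubqln2*, *Nploc4* and *Uchl5* and the change of *Ddi2* were not called. Lower slopes in cKO were then called for 4 of the 26 (*Uba1*, *Ubb*, *Ubqln1* and *Vcp*), against 10.9% of all genes. A lower change over 2 h was called for 4 (*Adrm1*, *Nploc4*, *Uba1* and *Ubqln1*), against 3.24%. Total counts called 0 lower in both comparisons.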

How the data were processed

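Poly(A) RNA of 12 libraries of primary mouse hepatocytes, 2 for each of 6 groups, was sequenced as 150 bp read pairs from unstranded libraries. The authors mapped to mm10 (STAR 2.5.3a), discarded multi-mapped reads and alignments scoring under 250, and assigned the rest to Gencode exons (featureCounts 2.0.1). The deposited values are therefore raw read counts per gene. Which Gencode release they used is not given. Positions, transcript lengths and exon overlaps were taken from Gencode M21, which held 83.83% of the row IDs and all 46 proteasome genes. 0 rows named no gene.

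The low-count filter was filterByExpr of edgeR, applied to the 6 groups with a minimum count of 10 and a minimum total of 15. Genotypes were compared at each time with TMM library sizes, and changes over time with total counts, which match CPM, by the quasi-likelihood test of edgeR 4.0.16 in R 4.3.3 on all 12 libraries, with Benjamini-Hochberg adjustment over all 14488 genes and a threshold of 0.05. TMM sizes move log2 differences away from ratios of CPM. A confidence interval is at 95%. The edgeR fits were tested on simulated data for the comparison at 0 h, the difference in the change over 2 h and the difference in slope. Alternatives were total counts or TMM, DESeq2 1.42.0 size factors, no filter, DESeq2's Wald test, the replicate number as a block, fewer libraries in the fit, and each library left out in turn, where a lone library is assumed to vary like the others.

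Members and lists were chosen with earlier results of these data known. In each comparison the up to 4 called members with the largest log2 difference in each direction are named, with values per library for up to 2, and called genes of the related list are named. Some genes of that list are not reported here. The other scaling of the list was added after the data were seen. Other members are named by role. *Psmd10* at 6 h, and the values per library of *Nfe2l1*, *Nfe2l2*, *Psmb5* at 0 h and *Psmd12*, were chosen after their values were seen. The 2 libraries of each group differed by more than sampling noise, since their chi-square statistic per gene was 2.14 to 9.16.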

Additional observations from a re-analysis of the deposited data

Results flagged for a closer look

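A difference between the genotypes in the slope over 0, 2 and 6 h of actinomycin D passed edgeR's test for 3 proteasome genes, all with a higher slope in *Mettl3* cKO than in Control. The difference was 0.13 log2 per hour for *Psmd7* (SE 0.02, adjusted p = 4.03e-05), 0.0758 for *Psmd5* (SE 0.01, adjusted p = 0.00119) and 0.0679 for *Psmd12* (SE 0.01, adjusted p = 0.00175). With each of the 12 libraries left out in turn, the difference stayed between 0.12 and 0.14, between 0.07 and 0.09, and between 0.06 and 0.07, and the largest adjusted p was 4.12e-04, 0.0101 and 0.0105, each below the threshold. Each of these fits kept at least 1 of the 6 h libraries of each genotype, which stood apart. With TMM, *Psmd5* and *Psmd12* were not called (adjusted p = 0.117 and 0.172), and the difference in the change over 2 h, which leaves out the levels at 6 h, was called for none of the 3 (adjusted p = 0.237 for *Psmd7*, 0.089 for *Psmd5* and 0.593 for *Psmd12*, edgeR).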

How the results depend on the processing

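The count of proteasome genes lower in *Mettl3* cKO stayed at 32 to 35 at 0 h, 33 to 37 at 2 h and 33 to 38 at 6 h under every alternative run and with each library left out. Among the proteasome genes named, *Psme1* (0.0451) and *Psme2* (0.0359) turned in sign at 6 h with total counts, and the called values of the other proteasome genes named kept their sign in the alternatives run on them. Of the 26 related genes, 4 called at 6 h turned in sign with total counts. Counts over time were less firm. With DESeq2 size factors, 24.5% of all genes tested were higher over 2 h in *Mettl3* cKO and 26.8% in Control. The change over 2 h was lower in *Mettl3* cKO than in Control for 2.26% of all genes. The slope was higher for 15.8% and lower for 12.8%. For the change over 2 h, Control had 37 higher genes with TMM and 37 with DESeq2 size factors, and 13 to 19 with each library left out. *Mettl3* cKO had 33 higher genes with TMM and 37 with DESeq2 size factors, and 5 to 18 with each library left out, and its lower genes numbered 0 with TMM, with DESeq2 size factors and without the filter, and 0 to 1 with each library left out. For the difference in that change, the lower genes numbered 3 with TMM, 2 with DESeq2 size factors and 1 with only the 0 and 2 h libraries, and the higher genes 0 to 1 with each library left out. For the difference in slope, the higher genes numbered 1 with TMM and 1 with DESeq2 size factors, the lower genes 11 and 13, and with each library left out the higher genes numbered 3 to 5 and the lower genes 0 to 1. With each library left out, the higher genes at 0 h numbered 1 to 2 and at 6 h 3 to 4. The cause of these shifts was not tested, apart from the scaling, which moves all genes.

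The replicate number as a block gave 34, 35 and 38 lower genes at 0, 2 and 6 h, 15 higher genes over 2 h in *Mettl3* cKO and 19 in Control, 3 with a higher slope in *Mettl3* cKO and 0 with a different change over 2 h. Libraries that shared a number did not deviate together, with correlations from −0.4 to 0.204 over 15 pairs of groups, so numbers were not taken as pairs. With 2 libraries per group, the 95% confidence interval of a proteasome gene at 0 h reached 0.13 log2 to either side in the median, and *Psma8*, *Psmg3* and *Psme2b* rest on few reads.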
